A study of Homo sapiens with 6 samples.

Results

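The genes described here are 42 genes of the integrated stress response and of amino-acid synthesis, taken by symbol from a count table of 61852 genes. They were listed by pathway, but with earlier results of these data known. They fall into 17 stress-response regulators and effectors, 9 serine and folate enzymes and 16 other amino-acid enzymes. All 42 were found in the table. The table holds 6 libraries made from polyadenylated RNA of MEG-01, an immortal line grown from a human megakaryoblastic leukaemia. The control group is 3 libraries of MEG-01 cells transduced with the pLKO.1 vector without a MELK hairpin, and the knockdown group is 3 libraries of MEG-01 cells transduced with sh2-MELK, a short hairpin RNA against the kinase MELK. The comparison asks which transcripts differ when MELK is knocked down. Both groups carry a lentiviral vector, share the batch label F5 and are labelled as biological replicates. Only 1 hairpin was used, so an effect of MELK loss and an effect particular to that hairpin cannot be told apart. The sources used here give neither the time after transduction nor any drug selection.

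In the integrated stress response, kinases such as EIF2AK1 (heme-regulated inhibitor, HRI) and EIF2AK4 (GCN2, a sensor of uncharged tRNA) phosphorylate the translation factor eIF2, which lowers general protein synthesis while the ATF4 mRNA is translated more. The ATF4 protein then binds DNA with C/EBP partners and switches on genes for amino-acid uptake and synthesis, among them the enzymes that make serine from a glycolytic intermediate and those that carry its carbon on folate into nucleotide synthesis. Feedback comes from PPP1R15A and PPP1R15B, which bring a phosphatase to eIF2, and from TRIB3, which binds ATF4. ATF4 is controlled largely at translation, and only mRNA was measured here. In RNA from a whole culture, fewer cells of a type and less RNA per cell cannot be told apart.

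The C/EBP-ATF response element has the core TGATGNAA, and the windows from 250 bases before to 50 bases after each start site in RefSeq (GRCh38.p14) were searched for it on both strands. A window was at hand for 33 of the 42 genes. The core was found for 8 of the 33 (24.2%), against 2.42% of 4137 genes of the expression comparison and 4.46% of all 27305 genes with a window. The shorter TGATG, which every match to the core contains, was found for 36.4% of the 33 against 26.3% and 37.7%. Several of these genes are textbook ATF4 targets, and they have on average 1.70 windows per gene against 1.48 in the comparison, so the share describes the list and says nothing of binding in these cells. The 8 stretches are shown because the genes that carry the core did not move in 1 direction. Each is written 5′ to 3′ on the strand of its gene, with the core in capitals.

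PPP1R15B (chr1:204412026-204412055, minus strand): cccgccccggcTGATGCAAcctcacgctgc
ATF3 (chr1:212565205-212565234, plus strand): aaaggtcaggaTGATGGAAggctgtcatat
MTHFD1L (chr6:150866346-150866375, plus strand): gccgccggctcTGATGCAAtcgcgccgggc
ASNS (chr7:97872458-97872487, minus strand): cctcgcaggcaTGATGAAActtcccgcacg
GOT1 (chr10:99430804-99430833, minus strand): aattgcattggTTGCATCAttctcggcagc
BCAT1 (chr12:24949131-24949160, minus strand): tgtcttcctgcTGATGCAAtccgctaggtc
CHAC1 (chr15:40953251-40953280, plus strand): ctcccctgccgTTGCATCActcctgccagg
CEBPG (chr19:33374060-33374089, plus strand): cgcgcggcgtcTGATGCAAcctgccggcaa

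In GOT1 and CHAC1 the core reads on the opposite strand, so its reverse complement is in capitals. Of the 8 genes, 5 were abundant enough for the main comparison, where 4 were higher in knockdown (ATF3, PPP1R15B, MTHFD1L and GOT1) and 1 was lower (BCAT1). Over all genes 77.0% passed in that comparison. CHAC1, with the same core, was lower in the analyses that could hold it. In a model of the added number, described below, CEBPG was at -0.26 on the log2 scale and did not pass. ASNS was at -0.72 in that model and at 1.32 in edgeR with its default filter, where it did not pass.

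The deposited values are read counts to which 1 of the numbers 0, 1, 2, 10 and 100 seems to have been added, as 35797 genes (57.9%) hold nothing else. This noise, with an SD of 38.9 counts, is small for abundant genes and large for rare ones, so the main comparison was fitted to the 5038 genes that averaged 500 counts or more. Library totals ran from 18945176 to 21711313 counts. Control replicate 1 lay farther from the other controls than they lay from each other (chi-square per degree of freedom of 10.1 and 10.5 against 4.66), while control and knockdown libraries differed by 189.3 to 234.6. MELK itself had 219, 206 and 238 counts in control and 16, 124 and 26 in knockdown, a log2 change of -1.98 with an SE of 0.69 (edgeR, adjusted p = 0.104) in a fit that called 16.5% of its genes, and -3.38 (95% interval -3.87 to -2.96) once the added number was modelled. Of 12 megakaryoblast markers, 6 had a mean of at least 500 counts and GP1BB and VWF were under 50 counts. In the main comparison, which called 77.0% of all its genes, 2 of these 6 were higher in knockdown and 4 were lower. The summed megakaryoblast markers were 2637 to 2768 CPM (counts scaled to a common library size) in control and 1604 to 1670 CPM in knockdown, erythroid markers 1026 to 1048 and 464.1 to 479.5, and the mitochondrial share of counts 10.2% to 10.7% and 9.12% to 9.18%. Granulocyte and monocyte markers summed to 374.9 to 396.6 CPM and 232.9 to 249.1 CPM with ELANE and CD14 under 50 counts, and stromal and epithelial markers to 54.1 to 58.4 CPM and 75.6 to 79.1 CPM with COL1A2 under 50 counts. Lymphocyte markers summed to 295.7 to 306.0 CPM and 93.3 to 93.8 CPM, with CD3E and MS4A1 among those under 50 counts. These levels moved with the groups, and their part in the results was not tested.

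Of the 42 genes, 31 entered the main comparison. In it 11 were called higher in knockdown, 17 were called lower and 3 (EIF2AK1, EIF2AK4 and GLUD1) did not pass an adjusted p of 0.05 (edgeR quasi-likelihood test, Benjamini-Hochberg over 5038 genes). Over all genes 77.0% passed, 38.1% higher and 38.9% lower, so passing this test sets the 31 apart little. Their control and knockdown values did not overlap in 27 of 31 genes, against 79.2% of all genes. Against a 1.5-fold change, 2 of the 31 genes were higher (ATF3 and GOT1) and 7 were lower (SESN2, PHGDH, PSAT1, SHMT2, CBS, AHCY and GPT2), while 20.0% of all genes passed that test, 9.59% higher and 10.4% lower. A change of at least 2-fold was estimated for 25.8% of the 31 genes, 1 higher and 7 lower, and for 9.13% of all genes. The median log2 fold change was -0.16 in the regulators, -0.34 in the serine and folate enzymes and -0.21 in the other amino-acid enzymes, beside -0.002 over all genes in the fit. These medians leave out the rarer genes: with those that averaged 200 counts or more they were -0.25, -0.75 and -0.33, and in a model of the added number -0.27, -0.75 and -0.35. With scaling by library size alone the median of the regulators was -0.09.

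**Figure D1:**
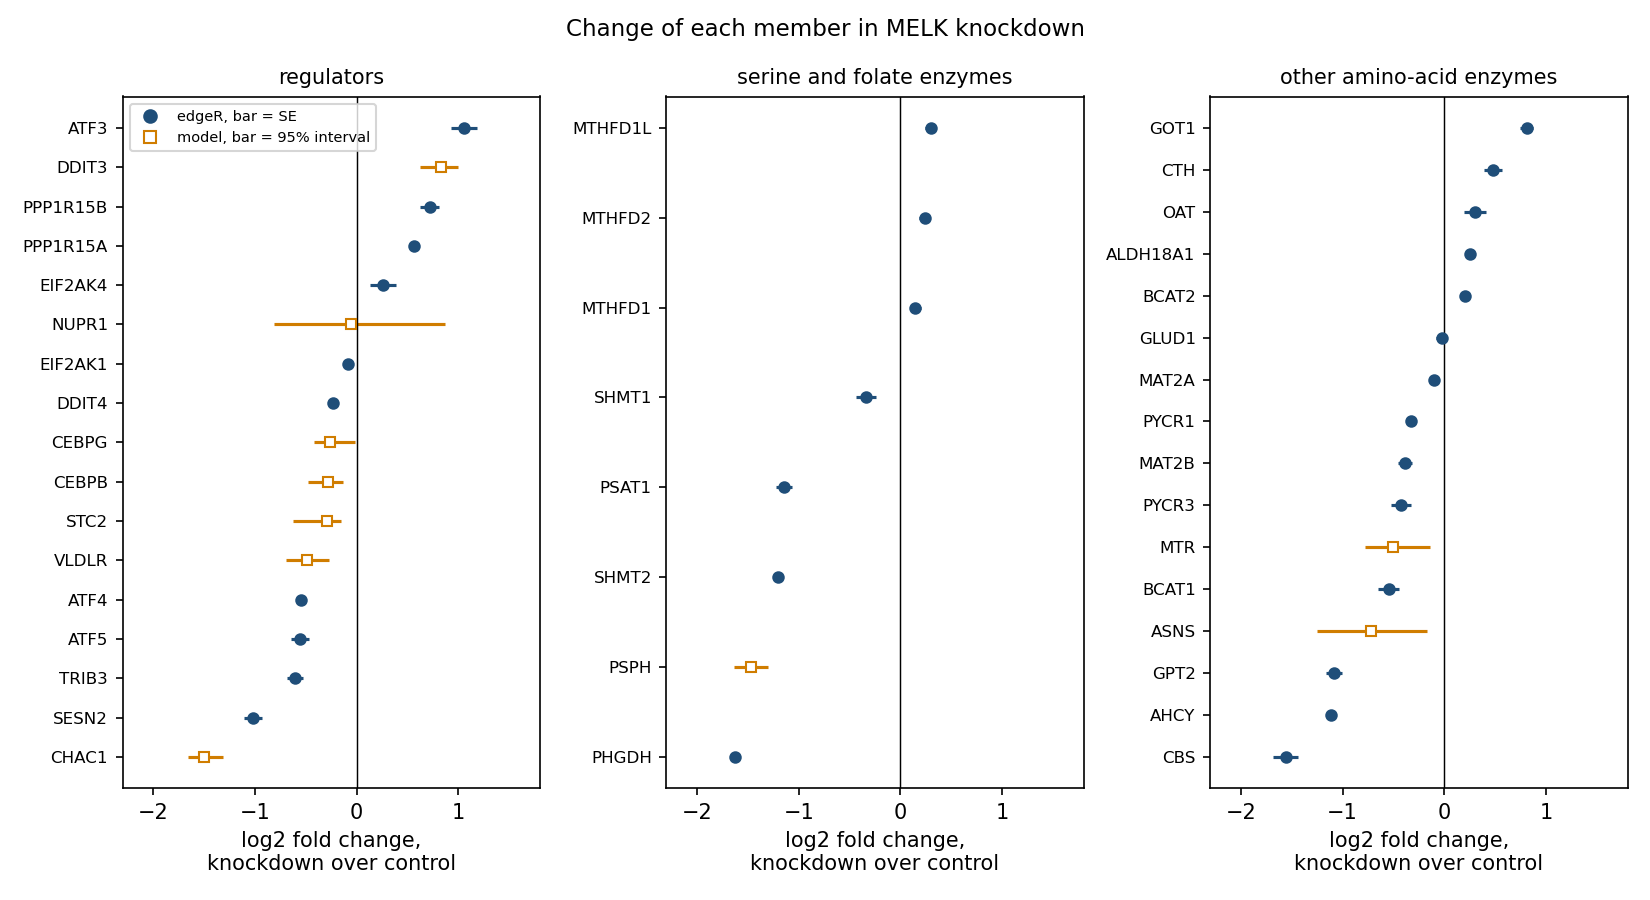
Log2 fold change of knockdown over control (x axis) for each gene of the 3 groups (y axis), with edgeR values and SE bars for genes that averaged 500 counts or more and, as open squares, estimates with 95% intervals from a model of the added number for the rarer genes. ALDH1L2 is left out because its estimated reads were near 0. Serine synthesis enzymes lie at the low end, and each group holds genes on both sides of 0.

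**Figure D2:**
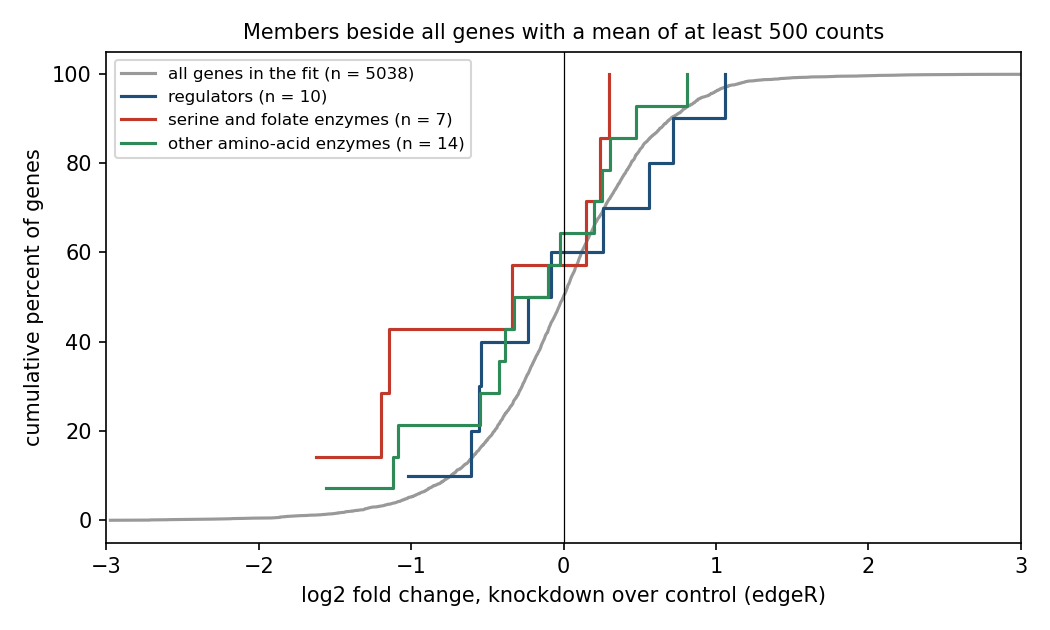
Cumulative percent of genes (y axis) at or below each log2 fold change (x axis, edgeR, knockdown over control) for all 5038 genes in the fit in grey and the 10 regulators, 7 serine and folate enzymes and 14 other amino-acid enzymes in it. Of the serine and folate enzymes 3 lie below -1 and 3 between 0 and 0.5, with 1 in between.

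Among the regulators, ATF4 and several of its usual targets fell, while ATF3, the rarer DDIT3 and both eIF2 phosphatase subunits rose. Genes induced in the response thus moved in both directions. Of 10 regulators in the fit, 5 fell (ATF4, ATF5, DDIT4, TRIB3 and SESN2), 3 rose (ATF3, PPP1R15A and PPP1R15B) and 2 did not pass. The share that passed, 80%, is near the 77.0% of all genes. Against a 1.5-fold change 20% of these regulators passed, beside 20.0% of all genes. ATF4 (chromosome 22, 39519695 to 39522685, GRCh38), the transcription factor at the centre of the pathway, had 454, 465 and 468 CPM in the 3 controls and 307, 324 and 312 CPM in the 3 knockdowns. The groups were far apart next to their spread, with means of 462.0 ± 7.55 and 314.5 ± 8.58 CPM (SD, n = 3), which is -0.54 ± 0.03 (SE) as a log2 fold change (edgeR adjusted p = 3.42e-10). Processed pseudogenes share 10.1% of the 75-base words of ATF4, and the row of the closest, ATF4P3, holds little beyond the added number. The estimated fall of ATF4, to 0.681 of control, is under 1.5-fold, and 16.4% of the genes in the fit had a lower log2 fold change.

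SESN2, sestrin 2, a stress-induced restraint on the mTORC1 growth kinase (chromosome 1, 28259527 to 28282491), had 59.2, 61.8 and 62.5 CPM in control and 30.1, 25.8 and 34.0 CPM in knockdown. No knockdown library came near the controls, and SESN2 fell by 1.02 ± 0.09 on the log2 scale (edgeR adjusted p = 4.78e-08). TRIB3, the pseudokinase that binds ATF4, had 97.3, 78.9 and 84.8 CPM in control and 56.9, 61.6 and 51.5 CPM in knockdown. Control replicate 1 was the highest library, and TRIB3 fell by 0.61 ± 0.08 on the log2 scale (edgeR adjusted p = 7.75e-06). ATF5, a sister factor of ATF4 tied to mitochondrial stress, had 46.2, 46.1 and 49.0 CPM in control and 30.6, 35.7 and 28.9 CPM in knockdown. The groups did not overlap, and ATF5 fell by 0.56 ± 0.09 on the log2 scale (edgeR adjusted p = 3.26e-05). DDIT4 (REDD1, an inhibitor of mTORC1) fell by 0.23 ± 0.05 on the log2 scale (edgeR adjusted p = 0.000783), from 141.8 ± 7.15 to 119.7 ± 7.26 CPM.

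ATF3, a repressor induced downstream of ATF4 and by many other stresses (chromosome 1, 212565334 to 212620777), had 20.9, 22.1 and 14.9 CPM in control and 39.2, 40.5 and 39.6 CPM in knockdown. Control replicate 3 was the low one, and the 3 knockdown libraries were close together. ATF3 rose by 1.06 ± 0.13 on the log2 scale (edgeR adjusted p = 1.88e-06), and by 1.32 (95% interval 1.18 to 1.46) with the added number modelled. PPP1R15B, the constitutive eIF2 phosphatase subunit (CReP), had 24.8, 26.3 and 24.1 CPM in control and 42.6, 40.4 and 39.4 CPM in knockdown. Its groups were well separated, at a log2 fold change of 0.72 ± 0.09 (edgeR adjusted p = 2.54e-06). PPP1R15A, the stress-induced subunit (GADD34; chromosome 19, 48872392 to 48876057), had 327, 324 and 310 CPM in control and 473, 464 and 472 CPM in knockdown. It rose by 0.56 ± 0.03 on the log2 scale (edgeR adjusted p = 2.80e-10), with a spread of 4.83 CPM (SD, n = 3) among the knockdown libraries.

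Per kilobase of exon, ATF4 stood above PPP1R15A in control (183.8 against 103.6 CPM per kilobase) and below it in knockdown (125.1 against 151.8). Those are levels, averaged over 3 libraries each. The log2 ratio of PPP1R15A to PPP1R15B counts was 3.68 ± 0.05 in control and 3.53 ± 0.05 in knockdown (SD, n = 3), a difference of -0.15. Over the 12 pairs of related genes compared by such ratios, the exact two-sided permutation test cannot go below p = 0.10 with 3 libraries against 3. Adjusted over the pairs this is 0.15, and PPP1R15A to PPP1R15B sat at that floor. With a trend on GC content and length removed, as described below, PPP1R15A rose more than PPP1R15B (0.76 against 0.45). No direction is therefore given for this ratio.

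The sensor kinases did not pass the test. EIF2AK1 had 176, 198 and 201 CPM in control and 177, 179 and 182 CPM in knockdown, with control replicate 1 just below the knockdown range and the other controls above it. Its log2 fold change was -0.08 ± 0.05 (edgeR adjusted p = 0.114), and without control replicate 1 it was -0.14 and passed. EIF2AK4 had 26.5, 19.2 and 23.7 CPM in control and 30.2, 25.4 and 26.8 CPM in knockdown, and the groups overlapped. Its log2 fold change was 0.26 ± 0.13 (edgeR adjusted p = 0.0702), was 0.37 and passed without control replicate 1, and was 0.15 without control replicate 2. It also passed in the model of the added number (0.31) and with scaling by library size alone (0.33). The log2 ratio of EIF2AK4 to EIF2AK1 was -3.06 ± 0.32 in control and -2.71 ± 0.14 in knockdown (SD, n = 3, exact permutation p = 0.30, adjusted p = 0.40 over 12 pairs). The difference of 0.35 was 0.20 without control replicate 2.

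The 7 rarer regulators were read from the model of the added number, which called 66.2% of 13137 genes, and where they had a mean of at least 200 counts also from edgeR on 7344 genes, of which 68.5% passed. DDIT3 (CHOP, the factor that links the response to cell death) had 208, 208 and 222 counts in control and 331, 408 and 351 counts in knockdown. All knockdown libraries were higher, and the estimate was a rise of 0.83 (95% interval 0.62 to 1.00) in the model and 0.81 ± 0.17 in edgeR (adjusted p = 0.000535). CHAC1, which breaks down glutathione and is a close ATF4 target, had 657, 641 and 617 counts in control and 305, 211 and 240 counts in knockdown. All 3 knockdown libraries lay well below every control, with CHAC1 at -1.50 (95% interval -1.66 to -1.32) in the model and -1.30 ± 0.15 in edgeR (adjusted p = 1.22e-06). DDIT3 and CHAC1, both listed as induced in the response, therefore differed from control in opposite directions in the same libraries. STC2, a secreted glycoprotein, had 471 to 553 counts in control and 299 to 475 counts in knockdown, with a log2 fold change of -0.37 ± 0.15 in edgeR (adjusted p = 0.0402) and -0.30 (95% interval -0.63 to -0.15) in the model. It did not pass with the default filter of edgeR (adjusted p = 0.181) or without a filter (adjusted p = 0.258).

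CEBPB and CEBPG, the C/EBP partners of ATF4, did not separate in edgeR. CEBPB ranged from 404 to 520 counts in control and from 320 to 475 in knockdown, with a log2 fold change of -0.26 ± 0.15 (edgeR adjusted p = 0.138) and -0.28 (95% interval -0.48 to -0.13) in the model, which called it lower. CEBPG ranged from 15.9 to 23.9 CPM in control and from 14.8 to 18.9 CPM in knockdown, with -0.25 ± 0.17 (edgeR adjusted p = 0.198) and -0.26 (95% interval -0.42 to -0.02) in the model, adjusted p = 0.0576. Their log2 ratio was 0.19 ± 0.44 in control and 0.15 ± 0.13 in knockdown (SD, n = 3), with wide spread among the controls, and the difference changed sign between 0.19 without control replicate 1 and -0.25 without control replicate 2. VLDLR, a lipoprotein receptor listed as an ATF4 target, had 176, 182 and 270 counts in control and 230, 133 and 200 in knockdown. These overlap as deposited, and the model, which can read 270 and 230 as holding an added 100, put VLDLR at -0.48 (95% interval -0.70 to -0.27), where edgeR with its default filter gave -0.11 (adjusted p = 0.919). NUPR1, a small stress-induced chromatin protein, had an estimated 10.8 reads in control (95% interval 6.11 to 15.3) and 10.4 in knockdown (7.04 to 14.7), too few to detect a difference. In the model 5 of 16 regulators were higher and 9 lower, and in edgeR at a mean of 200 counts 4 of 15 were higher and 7 lower. Over all genes 66.2% and 68.5% passed in these.

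Gene expression in these libraries also moved with base composition. Across the genes of the fit, the log2 fold change had a Spearman correlation of -0.386 with GC content, a description over genes that share the same 6 libraries. With each library's trend on GC content and transcript length removed, 76.9% of genes passed, and 3 regulators were higher and 5 lower. DDIT4 then no longer passed (-0.05, adjusted p = 0.324) and EIF2AK1 did (-0.26). ATF5 was at -0.33, TRIB3 at -0.36, PPP1R15B at 0.45 and EIF2AK4 at 0.11, each moved by over 1.5 times, and the first 3 still passed. ATF4 was then at -0.41, SESN2 at -0.80, ATF3 at 0.86 and PPP1R15A at 0.76, and all of these still passed. Strand-specific counting is not stated in the sources used here, and genes on the other strand cover 41.2% of the exonic bases of DDIT4, 31.6% of DDIT3 and 21.2% of ATF5, whose reads cannot be told apart from theirs.

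**Figure D3:**
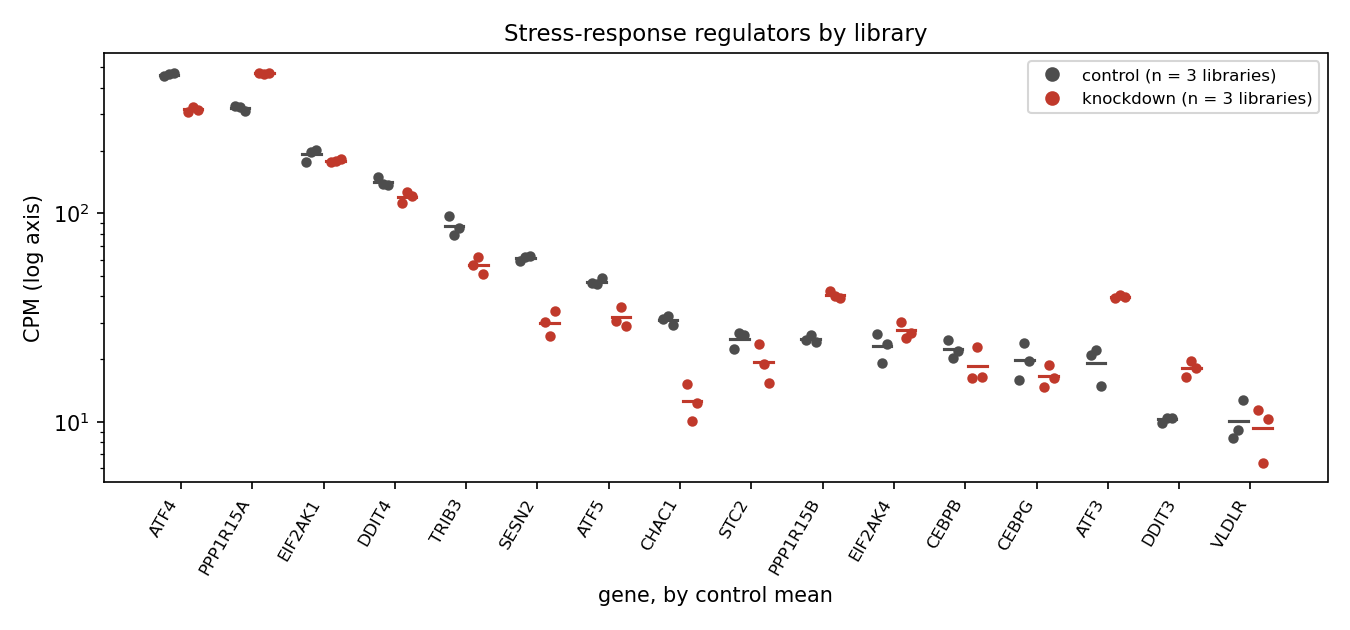
CPM on a log axis (y) of each stress-response regulator (x, ordered by control mean) in the 3 control and 3 knockdown libraries, with a line at each group mean. ATF4 lies at 454 to 468 in control and 307 to 324 in knockdown, PPP1R15A at 310 to 327 and 464 to 473. NUPR1 is left out, since its counts are mostly the added number.

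The serine and folate enzymes did not all move together. All 3 enzymes that make serine (PHGDH, PSAT1 and PSPH) and the mitochondrial serine hydroxymethyltransferase SHMT2 were 2-fold or more lower in knockdown, whereas MTHFD1L, MTHFD2 and MTHFD1, which carry 1-carbon units on folate, were slightly higher in the main comparison, the last of these not in every analysis and MTHFD2 with the opposite sign in 1 of them. Of 7 in the fit, 4 fell (PHGDH, PSAT1, SHMT2 and SHMT1) and 3 were called higher (MTHFD1L, MTHFD2 and MTHFD1), beside the 77.0% of all genes that passed. Only MTHFD1L was still called higher with the trend on GC content and length removed. PHGDH, the first and committed enzyme of serine synthesis (chromosome 1, 119648411 to 119744226), had 238, 232 and 238 CPM in control and 74.8, 74.1 and 79.3 CPM in knockdown. PHGDH fell to 0.322 of control, the largest fall of the 31 genes in the main comparison though not in the model, where CBS was lower, nor without knockdown replicate 1, with a log2 fold change of -1.62 ± 0.04 (edgeR adjusted p = 2.81e-14). Of all genes in the fit, 1.19% had a lower log2 fold change.

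PSAT1, the aminotransferase of the next step (chromosome 9, 78297143 to 78330093), had 60.6, 70.9 and 68.6 CPM in control and 28.95, 28.9 and 31.9 CPM in knockdown. The groups were apart by more than the width of either, and PSAT1 fell by 1.14 ± 0.08 on the log2 scale (edgeR adjusted p = 2.40e-09). PSPH, the phosphatase that ends the pathway, was rarer, with 510, 605 and 468 counts in control and 285, 175 and 161 in knockdown. Knockdown replicate 1 was the highest of its group and still below every control. PSPH fell by 1.31 ± 0.20 in edgeR at a mean of 200 counts (adjusted p = 3.89e-05), and was at -1.47 (95% interval -1.64 to -1.30) in the model. PSAT1 was at 0.449 of its control level and PHGDH at 0.322. Their log2 count ratio went from -1.83 ± 0.13 to -1.35 ± 0.03 (SD, n = 3) with no overlap, a difference of 0.48 at the floor of the exact permutation test. With the trend on GC content and length removed the falls lay closer together, PSAT1 at -1.47 and PHGDH at -1.63. The log2 count ratio of PSPH to PHGDH did not separate the groups (difference 0.28, exact permutation p = 0.50, adjusted p = 0.545 over 12 pairs). That difference rests on single libraries: it was 0.02 without knockdown replicate 1, 0.18 without control replicate 3, 0.43 without control replicate 2 and 0.45 without knockdown replicate 3, and 0.17 in the model.

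SHMT2, which splits serine into glycine and a folate-bound carbon in mitochondria (chromosome 12, 57229327 to 57234935), had 399, 388 and 401 CPM in control and 171, 174 and 168 CPM in knockdown. It was the most abundant of the group per kilobase in control, at 81.8 CPM per kilobase. SHMT2 fell by 1.20 ± 0.03 on the log2 scale (edgeR adjusted p = 3.99e-14). SHMT1, the cytosolic enzyme of the same reaction, had 39.6, 44.5 and 41.0 CPM in control and 37.5, 30.9 and 29.8 CPM in knockdown. Knockdown replicate 1 came close to the lowest control, and the fall was 0.34 ± 0.10 on the log2 scale (edgeR adjusted p = 0.00568). SHMT2 over SHMT1 counts, as a log2 ratio, went from 3.25 ± 0.11 to 2.39 ± 0.18 (SD, n = 3), a difference of -0.86 with no overlap, at the floor of the exact permutation test (p = 0.10, adjusted p = 0.15 over 12 pairs). SHMT2 was still above SHMT1 per kilobase in knockdown (35.3 against 4.49 CPM per kilobase).

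MTHFD1L, the mitochondrial enzyme that releases formate (chromosome 6, 150865549 to 151101887), had 99.3, 104 and 112 CPM in control and 123, 127 and 133 CPM in knockdown. All knockdown libraries were above all controls, by a log2 fold change of 0.30 ± 0.05 (edgeR adjusted p = 7.98e-05). MTHFD2, the mitochondrial dehydrogenase and cyclohydrolase, had 157, 183 and 174 CPM in control and 194, 202 and 205 CPM in knockdown. The change of 0.24 ± 0.05 on the log2 scale (edgeR adjusted p = 0.000577) reversed to -0.10 (adjusted p = 0.0157) with the trend on GC content and length removed, so no direction is given for it. Opposite-strand genes cover 33.2% of its exonic bases. MTHFD1, the cytosolic enzyme with 3 activities, had 115, 135 and 130 CPM in control and 133, 145 and 138 CPM in knockdown, and control replicate 2 overlapped the knockdown range. A change of 0.15 ± 0.06 on the log2 scale (edgeR adjusted p = 0.0278) did not pass with the trend removed (0.03), with the default filter of edgeR (0.13), nor without control replicate 1 (0.09), knockdown replicate 2 or knockdown replicate 3.

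With the trend on GC content and length removed, 1 enzyme of the serine and folate group was higher (MTHFD1L, 0.28) and 5 were lower, with PHGDH at -1.63, PSAT1 at -1.47 and SHMT2 at -1.05. Without that removal, the log2 ratios of MTHFD2 and MTHFD1L to MTHFD1 differed between groups by 0.09 and 0.15, both without overlap. The second differed by 0.09 without control replicate 2. Both sat at the floor of the exact permutation test (p = 0.10, adjusted p = 0.15 over 12 pairs). With the trend removed MTHFD2 was at -0.10, below MTHFD1 at 0.03, so no direction is given for the first ratio. ALDH1L2, which oxidises formyl-folate in mitochondria, had an estimated 0.477 reads in control (95% interval 0.05 to 1.94) and 1.10 in knockdown (0.193 to 3.29), so its values are the added number almost alone. In the model 3 of 8 enzymes of this group were higher and 5 lower, as in edgeR at a mean of 200 counts. Over all genes 66.2% passed in the model, 68.5% in that edgeR fit and 76.9% with the trend removed.

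**Figure D4:**
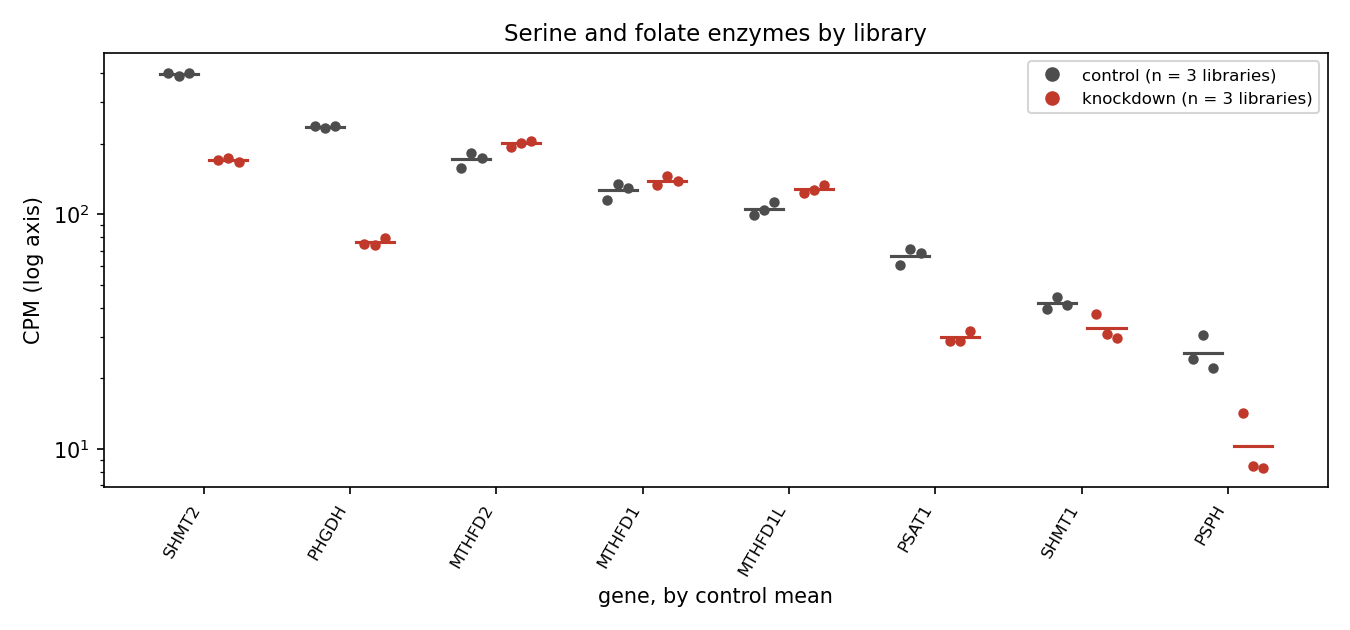
CPM on a log axis (y) of 8 serine and folate enzymes (x, ordered by control mean) in the 3 control and 3 knockdown libraries, with a line at each group mean. PHGDH lies at 232 to 238 in control and 74.1 to 79.3 in knockdown and SHMT2 at 388 to 401 and 168 to 174, while the MTHFD genes differ little. ALDH1L2 is left out.

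The other amino-acid enzymes also moved in both directions. Of 14 in the fit, 8 were called lower (CBS, AHCY, GPT2, BCAT1, PYCR3, MAT2B, PYCR1 and MAT2A). Called higher were 5 (GOT1, CTH, ALDH18A1, BCAT2 and OAT), and GLUD1 did not pass, beside the 77.0% of all genes that passed. The sign of OAT did not hold in every analysis, and MAT2A lost its call in many. PYCR1, PYCR3 and CTH lost theirs with the trend on GC content and length removed. In the methionine cycle and its outlet, AHCY and CBS fell by over 2-fold, while CTH rose in the main comparison but not with the trend on GC content removed. AHCY, which hydrolyses S-adenosylhomocysteine (chromosome 20, 34280268 to 34311802), had 295, 295 and 305 CPM in control and 135, 143 and 131 CPM in knockdown. The 2 ranges were far apart, and AHCY fell by 1.12 ± 0.04 on the log2 scale (edgeR adjusted p = 5.82e-13). CBS, which joins homocysteine and serine to cystathionine (chromosome 21, 43053191 to 43076943), had 39.3, 41.1 and 46.6 CPM in control and 16.1, 14.9 and 11.7 CPM in knockdown. CBS fell by 1.56 ± 0.12 on the log2 scale (edgeR adjusted p = 1.10e-08), and was at -1.89 (95% interval -2.05 to -1.51) in the model, with the lowest value in knockdown replicate 3. The near-identical CBSL holds 88.4% of the 75-base words of CBS, so the reads counted for CBS may come from either gene. How reads that fit both genes were counted is not stated, so the level of CBS is uncertain in both groups. The row of CBSL, at 1 to 103 counts, holds little beyond the added number.

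CTH, the next enzyme on the way from cystathionine to cysteine, had 33.0, 36.4 and 31.1 CPM in control and 42.8, 44.9 and 51.2 CPM in knockdown. It rose by 0.48 ± 0.09 on the log2 scale (edgeR adjusted p = 0.000207), and did not pass with the trend on GC content and length removed (0.18, adjusted p = 0.0621). As a log2 ratio, CTH over CBS counts was -0.34 ± 0.22 in control and 1.71 ± 0.37 in knockdown (SD, n = 3), a difference of 2.04 without overlap and at the floor of the exact permutation test (p = 0.10, adjusted p = 0.15 over 12 pairs). With the added number modelled the difference was 2.38.

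MAT2A, the catalytic subunit that makes S-adenosylmethionine, went from 205.0 ± 12.2 to 189.7 ± 1.23 CPM (SD, n = 3), or -0.10 ± 0.04 on the log2 scale (edgeR adjusted p = 0.045). It no longer passed without control replicate 2, without any 1 of the 3 knockdown libraries, with relative log expression or library-size scaling, with the default filter of edgeR or none, or in DESeq2, limma-voom and the model, and was -0.04 without control replicate 2 and -0.03 with scaling by library size alone. MAT2B, its regulatory subunit, fell by 0.38 ± 0.07 on the log2 scale (edgeR adjusted p = 0.000104), from 66.2 ± 2.68 to 50.3 ± 3.68 CPM. With the trend on GC content and length removed MAT2A was at -0.32 and MAT2B at -0.87. MTR, methionine synthase, had 251 to 334 counts in control and 183 to 246 in knockdown, a log2 fold change of -0.43 ± 0.21 (edgeR at a mean of 200 counts, adjusted p = 0.0778) and -0.51 (95% interval -0.78 to -0.14) in the model, which called it lower.

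Among the transaminases, GOT1 and GPT2 moved in opposite directions. GOT1, the cytosolic aspartate transaminase (chromosome 10, 99396870 to 99431569), had 63.0, 60.02 and 74.0 CPM in control and 111, 117 and 114 CPM in knockdown. Control replicate 3 was the highest of its group and far below the knockdown range, and GOT1 rose by 0.81 ± 0.07 on the log2 scale (edgeR adjusted p = 2.04e-08). Opposite-strand genes cover 19.3% of its exonic bases. GPT2, the mitochondrial alanine transaminase and a known ATF4 target (chromosome 16, 46884378 to 46931297), had 62.0, 57.5 and 61.5 CPM in control and 25.9, 30.1 and 28.4 CPM in knockdown. It fell by 1.09 ± 0.08 on the log2 scale (edgeR adjusted p = 3.70e-09), with no overlap between groups.

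The 2 branched-chain transaminases also parted. BCAT1, the cytosolic form, had 36.1, 31.0 and 31.6 CPM in control and 21.9, 22.3 and 22.8 CPM in knockdown. BCAT1 fell by 0.55 ± 0.10 on the log2 scale (edgeR adjusted p = 0.000156). BCAT2, the mitochondrial form, rose by 0.20 ± 0.04 on the log2 scale (edgeR adjusted p = 0.000258), from 152.4 ± 5.37 to 173.8 ± 2.53 CPM (SD, n = 3). BCAT2 over BCAT1 counts, as a log2 ratio, went from 2.21 ± 0.08 to 2.96 ± 0.01, a difference of 0.75 without overlap. With the trend on GC content and length removed BCAT1 was at -0.92 and BCAT2 at 0.44, so the gap between them was wider there.

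The proline and ornithine enzymes changed little. ALDH18A1, which starts proline synthesis from glutamate, had 172, 173 and 178 CPM in control and 203, 212 and 204 CPM in knockdown. The groups were apart, and it rose by 0.25 ± 0.04 on the log2 scale (edgeR adjusted p = 1.03e-05), or 0.14 with the trend removed. PYCR1 and PYCR3, which finish proline, fell by 0.32 ± 0.04 (edgeR adjusted p = 9.95e-07) and 0.43 ± 0.10 (edgeR adjusted p = 0.00113) on the log2 scale. Neither passed with the trend on GC content and length removed (-0.06 and -0.14). The log2 ratio of PYCR1 to PYCR3 differed by 0.10 between groups (exact permutation p = 0.50, adjusted p = 0.545 over 12 pairs), by 0.02 without control replicate 2, 0.07 without knockdown replicate 3, 0.16 without control replicate 1 and 0.05 in the model. OAT, ornithine aminotransferase, had 47.4, 67.1 and 63.7 CPM in control and 67.7, 74.6 and 75.8 CPM in knockdown, with control replicate 1 well below the rest. The change was 0.30 ± 0.11 on the log2 scale (edgeR adjusted p = 0.0239), 0.17 without control replicate 1, not past the threshold without knockdown replicate 3 or with the default filter of edgeR, and -0.05 with the trend removed. No direction is therefore given for OAT. GLUD1, glutamate dehydrogenase, had 111, 121 and 128 CPM in control and 115, 117 and 118 CPM in knockdown, a log2 fold change of -0.03 ± 0.05 (edgeR adjusted p = 0.648), and was at -0.22 and passed with the trend removed. GLUD2 and other genes hold 19.1% of its 75-base words.

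ASNS, asparagine synthetase, is a standard readout of ATF4 and carries the core 68 bases before its start site. It had 34, 36 and 34 counts in control and 120, 119 and 19 counts in knockdown. Deposited values of 120 and 119 beside 19 are what an added 100 would give, and the model estimated 31.7 reads in control (95% interval 23.6 to 39.5) and 19.3 in knockdown (14.4 to 24.9). Its log2 fold change was -0.72 (95% interval -1.25 to -0.17, adjusted p = 0.0212) in the model and 1.32 ± 1.18 in edgeR with the default filter (adjusted p = 0.591). A readthrough gene, AC079781.5, holds 80.7% of the 75-base words of ASNS, so reads that fit both genes cannot be assigned, and the level of ASNS is uncertain in both groups. In the model 5 of 16 genes of this group were higher and 9 lower, and with the trend on GC content and length removed 3 of 14 were higher and 7 lower. Over all genes 66.2% and 76.9% passed in these.

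**Figure D5:**
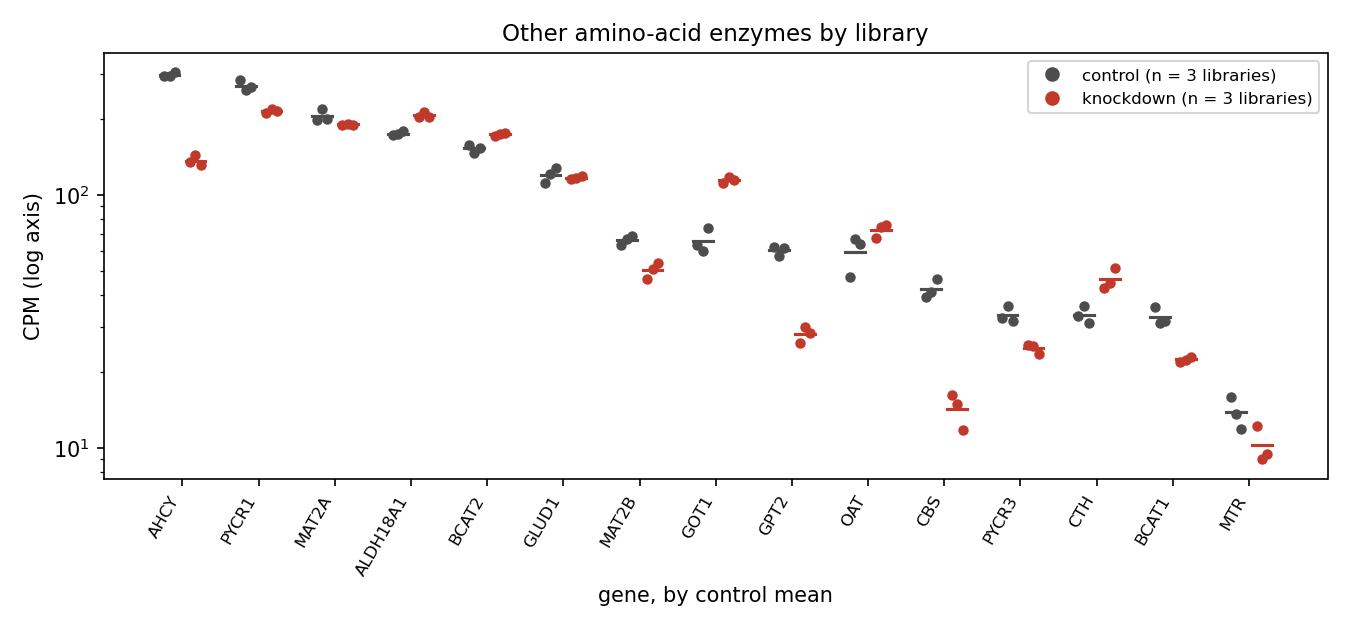
CPM on a log axis (y) of 15 other amino-acid enzymes (x, ordered by control mean) in the 3 control and 3 knockdown libraries, with a line at each group mean. AHCY lies at 295 to 305 in control and 131 to 143 in knockdown and GOT1 at 60.02 to 74.0 and 111 to 117. ASNS is left out.

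Genes around these 42 were read from lists of the same pathways. The background for each list is the 77.0% of all genes in the fit that passed, 38.1% higher and 38.9% lower. Of 14 genes of the other eIF2 kinases, eIF2 and its exchange factor, 10 were in the fit, 6 higher and 2 lower. EIF2S1, the phosphorylated subunit of eIF2, rose from 22.3 ± 1.89 to 50.4 ± 1.76 CPM (SD, n = 3), by 1.19 ± 0.09 on the log2 scale, and EIF2B1, a subunit of the exchange factor, by 0.67 ± 0.09. DELE1, which relays mitochondrial stress to EIF2AK1, fell by 0.58 ± 0.05 and EIF2B5 by 0.20 ± 0.05. Of 15 amino-acid transporters, 10 were in the fit, 4 higher and 6 lower. The leucine transporter SLC7A5 fell from 524.5 ± 2.52 to 281.2 ± 8.59 CPM (log2 fold change -0.89 ± 0.03) and the serine and alanine carrier SLC1A4 by 0.90 ± 0.10, while the glutamine carrier SLC38A2 rose by 1.14 ± 0.09 and SFXN1, which brings serine into mitochondria, by 0.44 ± 0.05. All 8 named genes passed an edgeR adjusted p of 0.05. With the trend on GC content and length removed EIF2S1 was at 0.79, EIF2B1 at 0.44, SLC38A2 at 0.72 and SFXN1 at 0.19.

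Of 13 other folate and glycine genes, 7 were in the fit, 2 higher and 4 lower, beside the same 77.0% of all genes that passed. GLDC, of the glycine cleavage system, fell by 0.89 ± 0.07 on the log2 scale, from 57.9 ± 2.45 to 31.1 ± 1.07 CPM (SD, n = 3). The purine enzyme GART rose by 0.62 ± 0.05 and thymidylate synthase TYMS by 0.22 ± 0.04. Of 10 genes of methionine salvage and trans-sulfuration, 3 were in the fit, among them MRI1 at -1.31 ± 0.10 and ADI1 at 0.29 ± 0.10. Of 13 glutamine, urea-cycle and proline genes, 8 were in the fit, 3 higher (AZIN1 at 1.06 ± 0.06 and GOT2 at 0.46 ± 0.04 among them) and 4 lower (ASL at -0.59 ± 0.11 and GLUL at -0.39 ± 0.03 among them). GOT2, the mitochondrial partner of GOT1, thus had the same direction as GOT1. Of 7 genes of branched-chain oxidation, only BCKDK (-0.89 ± 0.06) and MCCC2 (0.24 ± 0.05) were in the fit, and both passed. With the trend on GC content and length removed TYMS was at 0.13, ASL at -0.38, GLUL at -0.62, ADI1 at 0.02 and MCCC2 at 0.03.

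Of 23 other genes often listed as ATF4 targets, 15 were in the fit, 5 higher and 9 lower, with a median log2 fold change of -0.14. The tRNA synthetases IARS1 and WARS1 fell by 1.33 ± 0.07 and 0.98 ± 0.04 on the log2 scale, WARS1 from 376.6 ± 14.7 to 189.9 ± 4.29 CPM (SD, n = 3). GADD45A, a growth-arrest gene, had 77.9, 90.6 and 83.0 CPM in control and 312.8, 305.1 and 354.9 CPM in knockdown, and rose by 1.96 ± 0.07 on the log2 scale. HSPA9, the mitochondrial HSP70 chaperone, rose by 1.02 ± 0.04. The split between rising and falling genes seen in the 42 was thus also present in this list, and the 77.0% of all genes that passed is the background for both.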

How the data were processed

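RNA of 6 MEG-01 libraries (3 control, 3 knockdown) was measured by poly(A)-selected paired-end RNA-seq. Per the file headers, the authors deposited raw counts, as whole numbers for each gene, in 1 table. Per the submitters' processing notes the tools were STAR, HTSeq, fastp, FastQC, R 4.3.3 and DESeq2 on GRCh38, without stated roles. The strand setting, counting mode and annotation are not stated in those sources. Groups and replicate numbers come from the sample titles, and p-values are relative to the spread of the 3 libraries within a group. The 42 genes, the pathway lists and the filter of 500 counts were chosen with earlier results of these data known.

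Of 61852 rows, 61803 carried a symbol. The 5038 genes averaging 500 counts or more over the 6 libraries were fitted in edgeR 4.0.16 with TMM scaling and a robust quasi-likelihood F-test. The threshold was a Benjamini-Hochberg adjusted p of 0.05. The SE of an edgeR log2 fold change was derived as its absolute value divided by the square root of the F statistic. CPM are TMM-scaled and hold the added numbers. For rarer genes each count was modelled as a negative binomial read count (dispersion 0.00140) plus 0, 1, 2, 10 or 100 with equal weight, tested by likelihood ratio over the 13137 genes averaging 50 counts or more. Its intervals are 95% profile intervals and cover counting error and that dispersion alone.

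By rule, values per library were given for ATF4 and, in each group, for up to 4 passing genes with the largest rise and 4 with the largest fall. Those of the genes that did not pass (EIF2AK1, EIF2AK4 and GLUD1) and of the rarer DDIT3, CHAC1, PSPH, VLDLR and ASNS were added after their values were seen. From each pathway list the 2 largest of each direction were named. Some genes of these lists are not reported here. Alternatives were relative log expression and library-size scaling, other filters, DESeq2 1.42.0, limma-voom 3.58.1, a test against 1.5-fold, a replicate block, removal of GC and length trends (99.9% of genes had both) and each library left out. Scripts were tested on simulated data. Coordinates and overlaps of genes are from GENCODE release 29 on GRCh38 and promoter windows from RefSeq on GRCh38.p14.

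Same-numbered libraries were not paired by the labels, and their deviations from the group means correlated by 0.10, -0.01 and -0.08.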

Additional observations from a re-analysis of the deposited data

How the results depend on the processing

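The main limits are the number added to each count, which leaves genes under about 500 counts to a model, a single hairpin, and a trend of the changes with GC content. Over the settings tried, 488 values of single genes kept direction and side of the threshold, 53 lost the call, 7 gained it and 7 reversed. The reversals were MTHFD2 (-0.10) and OAT (-0.0550) with the GC and length trend removed, ASNS with filterByExpr (1.32) and without a filter (1.33), ALDH1L2 without a filter (-2.66), and GLUD1 with scaling by library size alone (0.0391) and without control replicate 3 (0.0251), within a range of -0.0764 to 0.0251 over the fits that left out 1 library. The cause was not tested beyond the values given.

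Testing against 1.5-fold left 483 genes higher and 526 lower, 1 regulator higher and 1 lower, 0 serine and folate enzymes higher and 3 lower, and 1 other enzyme higher and 3 lower. The model, on more genes, called 4347 higher and 4345 lower, with 5 and 9 regulators. With the GC and length trend removed 1 serine and folate enzyme and 3 other enzymes were higher. MELK was at -3.38 in the model. The log2 ratio of CEBPB to CEBPG differed by -0.25 to 0.19 over the fits that left out 1 library. The promoter share with the shorter TGATG was 36.4%. The replicate block gave 1949 genes higher and 1986 lower against 1918 and 1959, and 4 regulators higher against 3, with EIF2AK4 added (0.27). Some libraries correlated better with another number than with their own.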
